A study of Homo sapiens with 4 samples.

Results

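The genes described here encode RNA-binding proteins of 3 families that were taken by symbol: SR splicing factors (SRSF), heterogeneous nuclear ribonucleoproteins (HNRNP) and RNA-binding motif proteins (RBM). Every enhancer region whose assigned gene name starts with SRSF, HNRNP or RBM was kept, in each of the 4 deposited tables. This gave 54 genes of 13171 named in the tables, with 141 of 45672 regions. The 54 genes were 7 SRSF, 17 HNRNP and 30 RBM symbols, of which 47 are protein-coding genes and 7 are pseudogenes or antisense transcripts. Among genes annotated as protein-coding by RefSeq outside chromosome Y, 85 carry these prefixes, so 38 of them had no region by name in any table.

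The cells are Kasumi-1, an established acute myeloid leukaemia line that carries the RUNX1::RUNX1T1 fusion. They received CRISPR/Cas9 with a guide to SETD8 (sgSETD8, labelled SETD8 knockout, 2 samples) or a non-targeting guide (sgNT, labelled WT, 2 samples). SETD8 is the protein of the KMT5A gene and adds a single methyl group to histone H4 at lysine 20. The antibody was against acetylated lysine 27 of histone H3 (H3K27ac), and the method was CUT&Tag, in which a transposase tethered to the antibody cuts and tags the marked chromatin. The labels do not say whether the cells were a clone or a pool, or whether samples of a group came from separate cultures.

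SR proteins bind exonic enhancers and, through domains rich in arginine and serine, recruit the spliceosome to nearby splice sites. The hnRNPs coat nascent transcripts and often oppose SR proteins by masking sites, and they also act in RNA export and decay. RBM is a naming class rather than a family by descent, and its members share an RNA recognition motif while serving the spliceosome, m6A methylation, the exon junction complex or nuclear RNA decay. In blood cancers this machinery is a recurrent target of mutation, and H3K27ac marks active promoters and enhancers, here around the genes that encode it.

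Each group has 2 tables, which form 2 pairs by their deposited format and the form of their region identifiers. The dense pair has many long regions (18061 in sgSETD8 and 15149 in sgNT), and the sparse pair has fewer and shorter ones (7276 in sgSETD8 and 5186 in sgNT). A region is a stretch of stitched H3K27ac peaks, and its assigned gene is the one with the nearest transcription start site, so that a region can lie inside another gene. The authors' annotation put 214 dense sgSETD8 and 161 dense sgNT regions at promoters. Wholly within 2500 bp of a start lay 50 dense sgSETD8 and 44 dense sgNT regions. A start or gene without a region is therefore not shown to lack H3K27ac. The value column is the authors' signal, which equals a density per base multiplied by the region's width. The sources used here do not state the scale of that density, and read depth is unknown. KMT5A itself had a density of 0.475 in the sgSETD8 and 0.521 in the sgNT dense table and no region in either sparse table. H3K27ac at this gene does not check the loss of the protein. Myeloid leukaemia markers had regions in 13 of 15 genes in the dense sgSETD8 and 11 of 15 in the dense sgNT table, erythroid markers in 1 of 10 in each, lymphoid markers in 7 of 12 in sgSETD8 and 6 of 12 in sgNT, and non-haematopoietic markers in 1 of 12 in sgSETD8 and 0 of 12 in sgNT. With 2 tables a group an exact two-sided permutation test cannot give a p below 0.33, so comparisons are given as values, with exact (Clopper-Pearson) 95% intervals that cover the counting of regions only.

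In the dense pair more of these genes had an enhancer region after the SETD8 guide. The sgSETD8 table held regions for 47 of them, 68 regions that cover 564 kb, and the sgNT table held regions for 36, with 47 regions that cover 381 kb. By family, SRSF genes had 9 regions in sgSETD8 against 8 in sgNT, a smaller ratio than that of all dense regions but a difference of a single region. In covered length the SRSF ratio was the larger. SRSF regions covered 76.8 kb in sgSETD8 and 48.0 kb in sgNT. All dense regions covered 152.8 Mb in sgSETD8 and 132.8 Mb in sgNT. Most of the SRSF difference came from SRSF11 alone, with 39.0 kb in sgSETD8 and 11.4 kb in sgNT. SRSF3, SRSF8 and SRSF10 also covered more in sgSETD8, and SRSF4 and SRSF7 covered more in sgNT. HNRNP genes had 20 regions in sgSETD8 against 14 in sgNT and RBM genes 39 in sgSETD8 against 25 in sgNT. On the log2 scale the sgSETD8 over sgNT ratio was 0.38 for genes and 0.53 for regions, while over all genes of the dense tables it was 0.16 for genes and 0.25 for regions. In the sparse pair the counts for these families were nearly equal and slightly lower in sgSETD8. That table held 12 genes and 12 regions, against 13 genes and 14 regions in sgNT. The log2 ratios were -0.12 for genes and -0.22 for regions. Without the RBMS genes the sparse tables held 11 genes in sgSETD8 and 10 in sgNT. Over all genes the sparse ratio was 0.40 for genes and 0.49 for regions. The mean log2 ratio of member genes over the pairs was 0.13 ± 0.35 (SD, n = 2 pairs), which is smaller than its spread. Covered length per gene is plotted for all 54 genes.

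**Figure D1:**
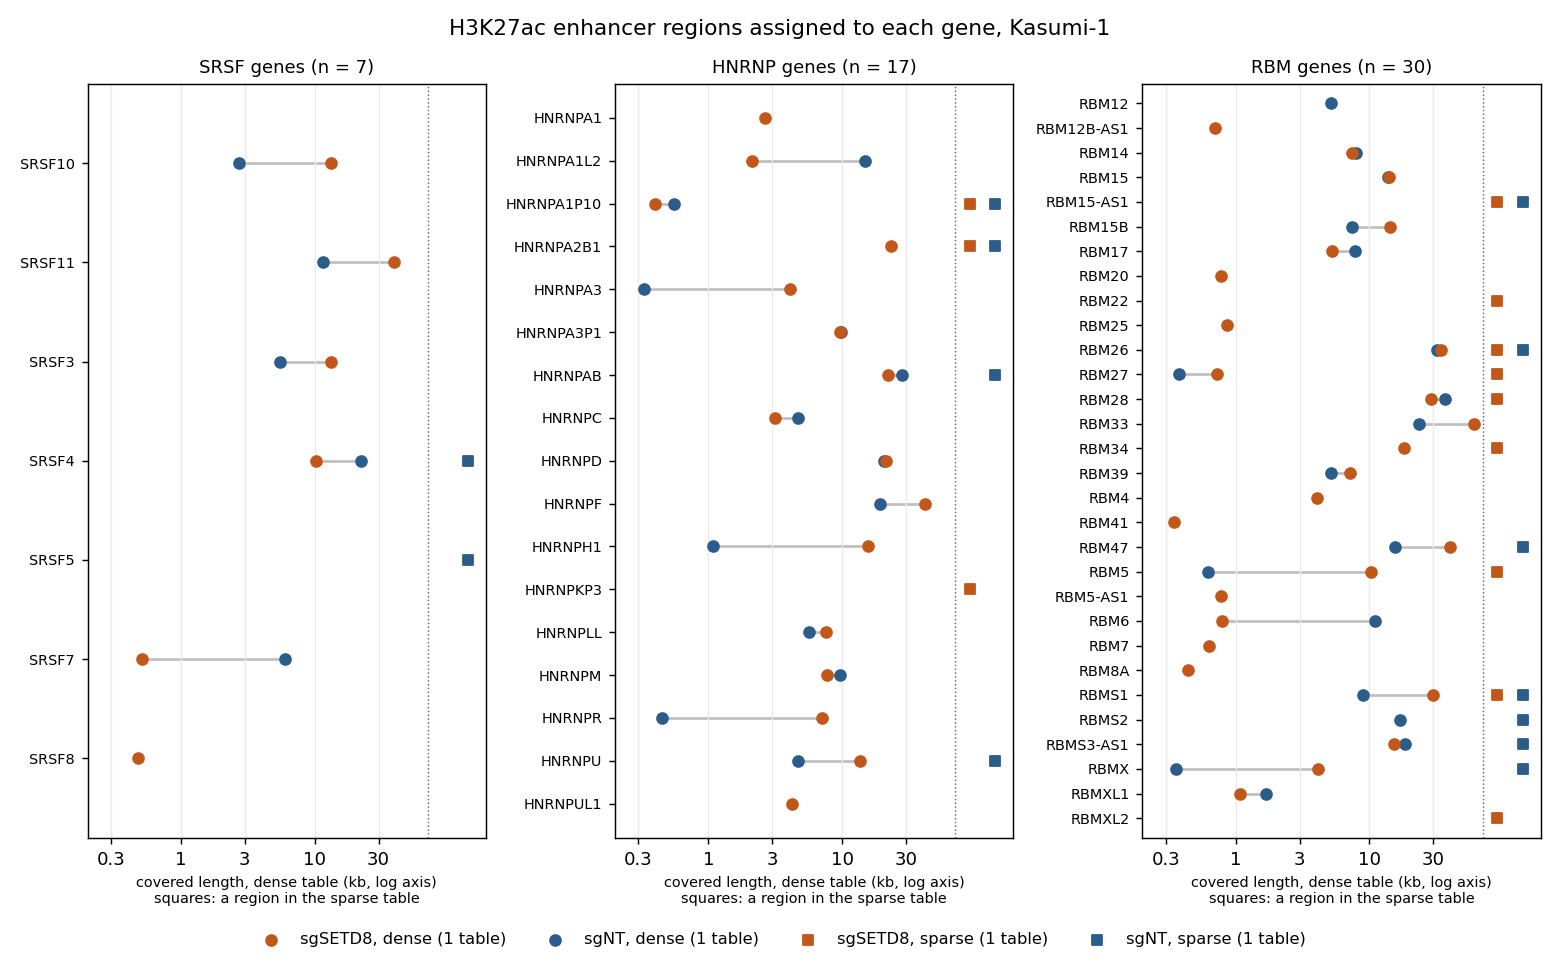
Covered length per gene in the dense tables (circles, kb on a log axis, 1 table per group, lines join the groups) and presence of any region in the sparse tables (squares) for the 54 genes by family. Genes with a lone orange circle have a dense region in sgSETD8 by name and none in sgNT, and circles lie right or left of each other where the covered length differs.

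The SR genes had regions for 6 of 7 symbols in the dense sgSETD8 table and 5 of 7 in the dense sgNT table. SRSF11, an arginine- and serine-rich protein of the spliceosome, had the widest region of the family. It spanned 38.7 kb in sgSETD8 (chr1:70189612-70228273, 8 peaks, density 0.479, rank 1007) and 11.4 kb in sgNT (chr1:70223482-70234924, 4 peaks, density 0.474, rank 3825). The sgSETD8 region reached over both annotated SRSF11 starts, and the sgNT region began downstream of them, with a short second sgNT region named for the neighbour LRRC40 inside the same span.

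At SRSF3 and SRSF10 the sgSETD8 regions were wider and of lower density. SRSF3, a small SR protein that also helps to export mRNA, had a region of 12.6 kb in sgSETD8 (chr6:36596781-36609367, density 0.320) and of 5.19 kb in sgNT (chr6:36593567-36598757, density 1.27). Only the sgNT region covered the SRSF3 start, since the sgSETD8 region began 2.42 kb downstream of it. SRSF10, an SR-like protein that turns into a general repressor of splicing when it loses its phosphates, had a region of 13.2 kb at density 0.341 in sgSETD8 and of 2.73 kb at density 1.18 in sgNT. Both SRSF10 regions began just inside the gene. The sgNT region ended 4.8 kb from the start, and the sgSETD8 region ran to 15.7 kb, near the gene's end.

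SRSF4 and SRSF7 went the other way in width. The intronic SRSF4 region covered 1.22 kb in sgSETD8 and 12.8 kb in sgNT, while a second SRSF4 region upstream of the gene was alike in extent, 9.06 kb in sgSETD8 and 9.50 kb in sgNT. SRSF7, which carries a zinc knuckle beside its RNA-binding domain, had a single region of 0.512 kb in sgSETD8 and 2 regions that summed to 5.96 kb in sgNT. SRSF8 had a 0.478 kb intergenic region at rank 14751 in the dense sgSETD8 table and none in sgNT by name or position. SRSF5 was named in the sparse sgNT table alone, for a 351 bp intergenic region, and dense regions of both groups under other gene names covered the same position. No table named a region for SRSF1, SRSF2, SRSF6, SRSF9 or SRSF12, although dense regions assigned to other genes lay over the bodies of SRSF1, SRSF2 and SRSF9.

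Among the hnRNP genes HNRNPF, which binds G-rich tracts beside exons, held the best-ranked region of all 3 families in both groups. It was 41.7 kb wide in sgSETD8 (chr10:43390049-43431760, 4 peaks, density 0.996, rank 292) and 19.1 kb wide in sgNT (chr10:43391258-43410393, 1 peak, density 1.99, rank 470). Along the gene, the sgSETD8 region began at -22.5 kb and the sgNT region at -1.14 kb from the start, and both ended near the same point inside the gene. This locus was also among the 3 that were covered in all 4 tables, with the RBM26 and RBMS1 loci. In this count the regions of a locus need not share a position. At HNRNPF the sparse regions carried another gene's name, and they overlapped the dense sgSETD8 region but not the dense sgNT region.

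HNRNPU, a scaffold attachment factor that binds chromatin-associated RNA, had 3 regions in the dense sgSETD8 table and 1 in the dense sgNT table. Its main sgSETD8 region was 12.6 kb wide with density 1.39 (chr1:244854794-244867364). In sgNT the same span held 2 regions, one named HNRNPU (4.70 kb, density 2.83) and one named for the small nucleolar RNA SNORA100, which together covered 11.5 kb at a mean density of 1.87. The difference in width by gene name at HNRNPU is thus largely a split into 2 regions with different names.

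HNRNPA2B1 and HNRNPA1 showed the same effect of naming. HNRNPA2B1, which packages RNA and reads m6A-marked transcripts, had a 23.3 kb dense sgSETD8 region (density 0.602) and no dense sgNT region by name, but 16.4 kb of the span lay in a dense sgNT region named CBX3, its divergent neighbour (density 0.826). HNRNPA1, the best-known splicing silencer of the family, had 2 short dense sgSETD8 regions (1.94 and 0.728 kb), both of which lay wholly inside a dense sgNT region named CBX5.

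HNRNPH1, a relative of HNRNPF, had a region of 15.7 kb at density 0.312 in sgSETD8 and of 1.08 kb at density 0.662 in sgNT. HNRNPA3 had 4.10 kb at density 0.630 in sgSETD8 and 0.331 kb at density 0.688 in sgNT. HNRNPLL, known for switching CD45 exons in lymphocytes, had 7.64 kb at density 0.5003 in sgSETD8, and 2 regions in sgNT of which the larger was 5.20 kb at density 1.01. In other hnRNP genes the sgNT region was the wider one. HNRNPAB covered 22.03 kb in sgSETD8 and 28.05 kb in sgNT. HNRNPM covered 7.73 kb in sgSETD8 and 9.71 kb in sgNT, and HNRNPC, which binds uridine tracts, 3.15 kb in sgSETD8 and 4.71 kb in sgNT. HNRNPD, whose protein AUF1 directs decay of AU-rich mRNAs, differed little, with a main region of 20.9 kb at density 0.768 in sgSETD8 and 20.7 kb at density 0.832 in sgNT. HNRNPUL1 was named for a dense region in sgSETD8 alone, 4.24 kb wide with density 1.28 and rank 3715, and no dense sgNT region overlapped it. A dense sgNT region named CCDC97, at density 0.470 (chr19:41296725-41306740), lay 29029 bp away inside the HNRNPUL1 gene, with a sparse sgNT region of that name inside it.

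RBM genes held most of the regions. RBM26, which takes part in nuclear decay of polyadenylated RNA, had 4 regions in sgSETD8 and 2 in sgNT, and its main intronic region was nearly the same in both, 31.0 kb at density 0.614 (rank 977) in sgSETD8 and 31.5 kb at density 0.779 (rank 875) in sgNT. RBM28, a nucleolar and spliceosomal protein, likewise shared a region of 28.4 kb in sgSETD8 (rank 749) and 28.2 kb in sgNT (rank 703). Its second region differed, with 0.432 kb in sgSETD8, and 8.32 kb over the RBM28 start in sgNT. RBM33, a partner of the m6A demethylase ALKBH5, had 39.4 kb at density 0.340 in sgSETD8 and 23.5 kb at density 0.531 in sgNT, with a second sgSETD8 region of 21.6 kb that met a sgNT region named SHH.

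RBM47, a cofactor of APOBEC1 in RNA editing, had a 39.5 kb region in sgSETD8 (chr4:40546849-40586317, 6 peaks, density 0.510, rank 910) where the sgNT table had 2 regions of 1.98 and 13.5 kb. All of them lay in an intron between the more distal and the more proximal of the RBM47 starts. RBMS1, a binder of single-stranded DNA and RNA, had the largest number of regions, 6 in sgSETD8 and 2 in sgNT, which covered 29.8 kb in sgSETD8 and 9.01 kb in sgNT. The 4 RBMS1 regions found in sgSETD8 alone had densities between 0.135 and 0.694, and 3 of them lay intergenic.

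RBM39 showed the largest difference in density among the 43 loci of these genes covered in both dense tables. RBM39, a partner of U2AF in splice site choice and the protein that aryl sulfonamide drugs degrade, had a region of 5.16 kb across its start in sgNT at density 2.54 (chr20:35739572-35744735, rank 1813). In sgSETD8 its region was 7.20 kb wide, began 1.71 kb inside the gene and had density 0.311 (chr20:35733347-35740546, rank 6657). Over the locus the log2 density ratio was -3.03, and the regions overlapped over a short stretch. The nearby RBM12 showed density 2.02 in a sgNT region of 5.18 kb, whereas the overlapping sgSETD8 region carried the name CPNE1 and density 0.849, a log2 ratio of -1.25 over the locus.

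RBM15, which guides the m6A writer complex to RNA and is fused to MRTFA in megakaryoblastic leukaemia, had 13.9 kb at density 0.763 in sgSETD8 and 13.8 kb at density 1.02 in sgNT. RBM15B, its paralogue, had 14.2 kb at density 0.299 in sgSETD8 and 7.43 kb at density 0.381 in sgNT. The regions named for RBM5 and RBM6, neighbours that regulate splicing of apoptosis genes, differed in opposite ways. The region named RBM5 covered 9.96 kb at density 0.258 in sgSETD8 and 0.621 kb at density 0.636 in sgNT. Neither touched the RBM5 gene. The sgSETD8 region lay upstream of RBM5 and over the end of RBM6, and the sgNT region lay between the genes. The RBM6 region covered 0.793 kb at density 0.644 in sgSETD8 and 10.5 kb at density 0.312 in sgNT. The region maps show 8 genes chosen after their values were seen, for the width and place of their regions.

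**Figure D2:**
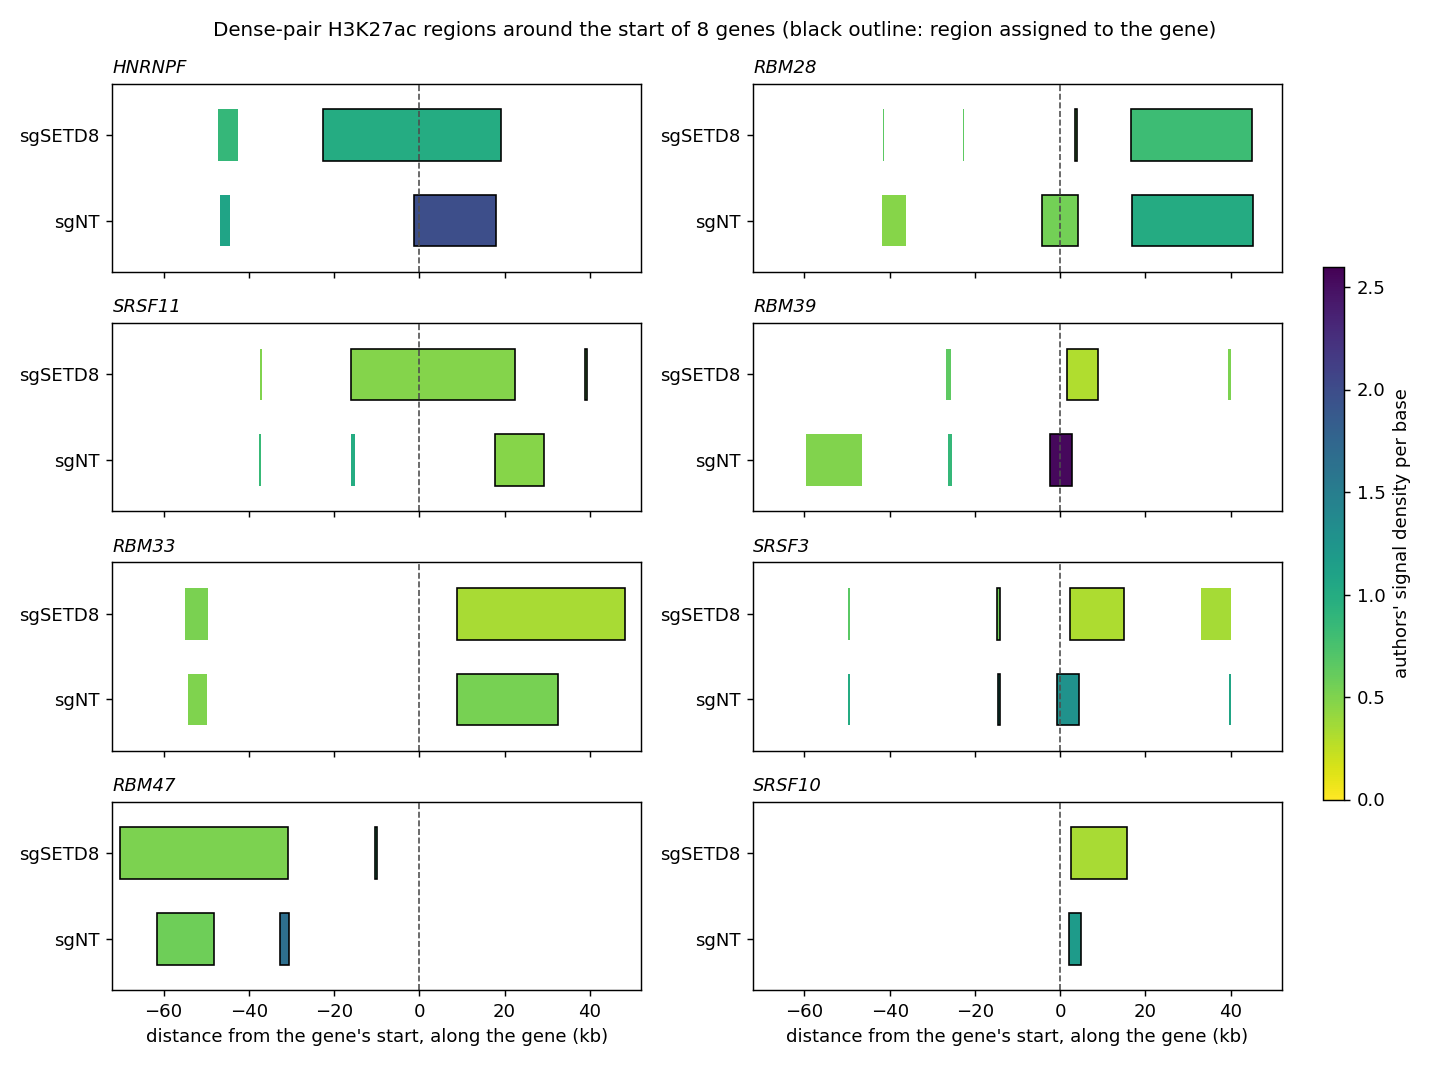
Dense regions of sgSETD8 (upper row of each panel) and sgNT (lower row) within 50 kb of the start of 8 genes, in kb along the gene from the start that the authors' distance to the best-ranked region refers to; colour is the authors' signal density per base. RBM39 and SRSF3 have a dense block over the start in sgNT and a paler one inside the gene in sgSETD8, and at HNRNPF the 41.7 kb sgSETD8 region reaches farther upstream than the 19.1 kb sgNT region.

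Taken by position instead of by name, 43 loci of these genes were covered in both dense tables. They summed to 525 kb in sgSETD8 and 423 kb in sgNT, a ratio of 1.24 beside 1.11 for all 10646 loci covered in both tables. The sgSETD8 coverage was the wider at 24 of the 43 loci (55.8%, against 60.8% of all loci) and the sgNT coverage at 17 (39.5%, against 39.1%). Coverage was over 1.5 times wider in sgSETD8 at 32.6% of these loci (32.3% of all loci) and over 1.5 times wider in sgNT at 11.6% (17.8% of all). Density was lower in sgSETD8 at 33 of the 43 loci (76.7%, against 78.1% of all), with a median log2 ratio of -0.35 beside -0.31. These shares are close to those of all loci, and since density is a mean over the region, a wider region with gaps has a lower density by construction. All 14 loci whose sgSETD8 coverage was wider by that factor had a lower density in sgSETD8, and 4 of the 5 whose sgNT coverage was wider by it had a higher density in sgSETD8, as the plot of width against density shows.

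**Figure D3:**
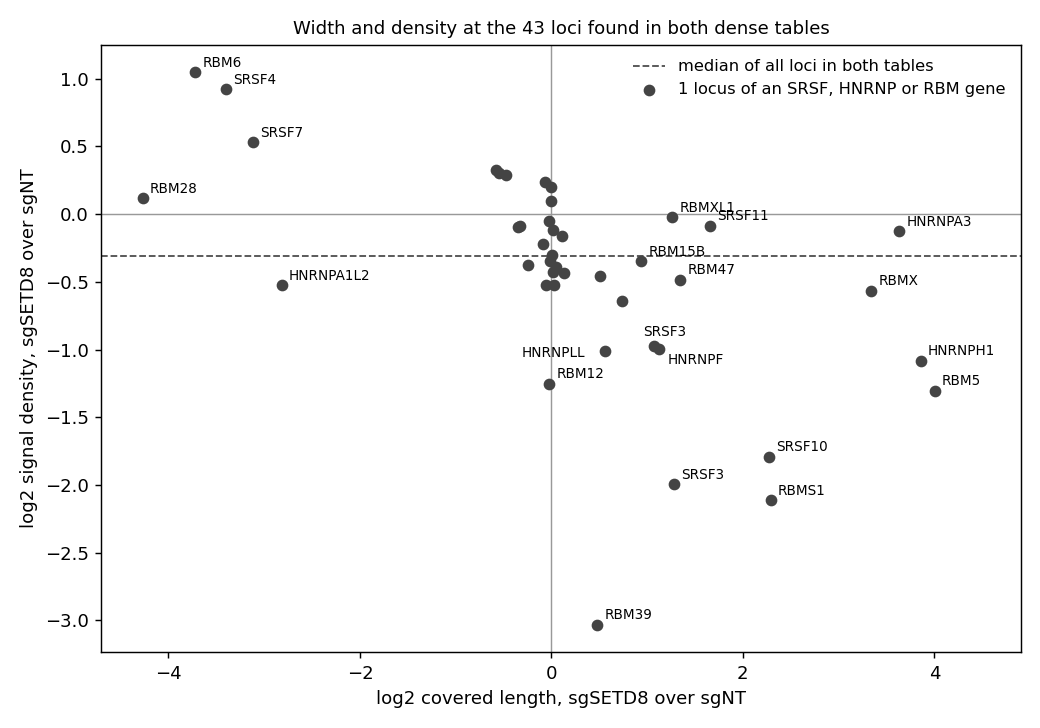
Log2 ratio of covered length (x axis) and of mean signal density (y axis), sgSETD8 over sgNT, at the 43 loci found in both dense tables; each point is a locus, the dashed line is the median of all loci. RBM39 lies lowest, at -3.03, and loci with narrower sgSETD8 coverage such as RBM6, SRSF4 and SRSF7 lie above 0.

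Density can be compared without the width where both groups called nearly the same region. Of 1769 dense regions that cover each other by at least 90%, 9 belonged to these genes. After subtracting the median of all matched regions (-0.26, sgSETD8 over sgNT), the 9 had a median log2 density ratio of -0.04, inside the SD of 0.24 over all matched regions. They ran between -0.26 at a distal RBM26 region and 0.50 at the upstream SRSF4 region, where density was 0.465 in sgSETD8 and 0.394 in sgNT. SRSF4 was the 1 region past 0.5, where 2.49% of all matched regions lay, and 0 regions lay past -0.5, where 1.92% of all lay. RBM15 had -0.16, RBMS1 -0.12, RBM28 -0.04, RBM14 0.04, HNRNPD 0.15 and the pseudogene HNRNPA3P1 0.22 on the same centred scale.

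**Figure D4:**
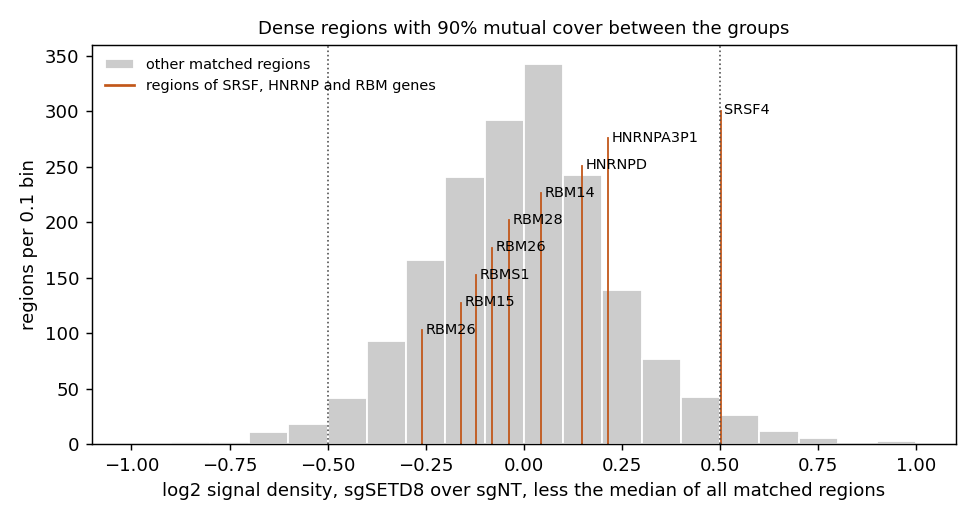
Centred log2 signal density, sgSETD8 over sgNT, of dense regions with at least 90% mutual cover: grey bars count the regions of other genes, orange lines mark the 9 regions of SRSF, HNRNP and RBM genes (line height has no meaning) and dotted lines mark 0.5 and -0.5. The lines lie within the body of the distribution apart from SRSF4, at 0.50.

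Genes with a region by name in a single group were then listed for the dense pair. Of the 49 genes with a dense region, 34 had one in both groups, 13 in sgSETD8 alone (26.5%, interval 14.9 to 41.1%, background over all genes 20.5%) and 2 in sgNT alone (4.08%, interval 0.498 to 14.0%, background 11.4%). Both intervals include the background. The 13 were HNRNPA1, HNRNPA2B1, HNRNPUL1, RBM4, RBM7, RBM8A, RBM20, RBM25, RBM34, RBM41, SRSF8 and the antisense transcripts RBM12B-AS1 and RBM5-AS1, and the 2 were RBM12 and RBMS2. By position HNRNPA1, HNRNPA2B1, RBM12 and RBMS2 had an overlapping region named for another gene in the other group, which left 11 of 49 genes in sgSETD8 (22.4%, interval 11.8 to 36.6%, background by position 18.1%) and 0 of 49 in sgNT (interval up to 7.25%, background by position 9.09%) without any overlap. The sgSETD8 interval by position includes its background, and the sgNT interval lies below its background. This count by position was chosen after the values were seen, and its intervals cover counting only.

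Most of the 11 had short, low-ranked regions. RBM25, a regulator of BCL2L1 splicing, had 0.856 kb at rank 13865, and RBM7, a subunit of the nuclear exosome targeting complex, had 0.633 kb at rank 13005. RBM8A, the Y14 subunit of the exon junction complex, had 0.443 kb at rank 16743. RBM20, the regulator of titin splicing in heart muscle, had 0.779 kb at rank 14805, and RBM41 had 0.347 kb at rank 17966. HNRNPUL1, RBM34 and RBM4 had longer regions of 4.24, 18.1 and 4.08 kb, at densities of 1.28, 0.237 and 0.406. RBM34 was the only gene named in both sgSETD8 tables and in neither sgNT table, but its 2 regions lay at different places, the sparse one at -13162 bp from the start. RBMS2 was the only gene named in both sgNT tables and in neither sgSETD8 table, and a dense sgSETD8 region named BAZ2A covered 16.4 kb of its 17.0 kb dense sgNT region.

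By region, 27 of 68 dense sgSETD8 regions had no overlapping sgNT region (39.7%, interval 28.03 to 52.3%, background 34%), and 7 of 47 dense sgNT regions had no overlapping sgSETD8 region (14.9%, interval 6.20 to 28.3%, background 22.7%). The intervals include the backgrounds. The 27 regions had a median width of 621 bp, 20 were under 1 kb, and the best ranked 3715. The 7 had a median width of 473 bp, 5 were under 1 kb, and the best ranked 7264. Of the dense sgSETD8 regions without a dense sgNT counterpart, 1 each near HNRNPU, RBMX and RBMS1 overlapped a region of the sparse sgNT table, and 1 upstream of RBM5 overlapped a region of the sparse sgSETD8 table. Region numbers per gene were higher in sgSETD8 for 21 genes, higher in sgNT for 7 and equal for 21, while over all genes 37.3% had more and 21.2% fewer.

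**Figure D5:**
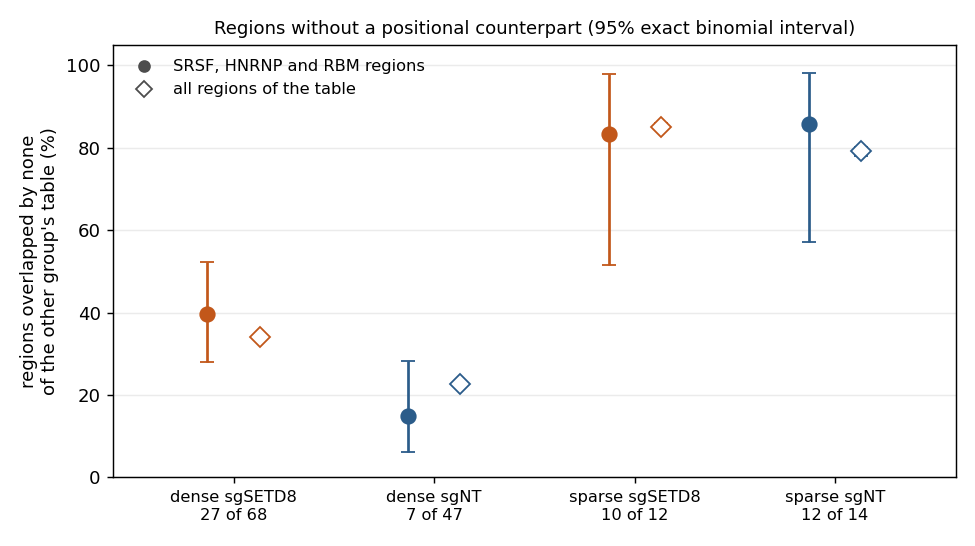
Percent of regions that no region of the other group's table of the same pair overlaps, for SRSF, HNRNP and RBM regions (filled circles) and all regions of the table (open diamonds), with exact 95% binomial intervals. In the dense pair the circles stand at 39.7% for sgSETD8 and 14.9% for sgNT, and in the sparse pair at 83.3% for sgSETD8 and 85.7% for sgNT.

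The sparse pair shared little between groups. Of its 20 genes, 5 had a region in both groups. In sgSETD8 alone were 7 (35%, interval 15.4 to 59.2%, background 45.9%). In sgNT alone were 8 (40%, interval 19.1 to 63.9%, background 28.8%). Both intervals include the background. Those in sgSETD8 alone were RBM5, RBM22, RBM27, RBM28, RBM34, RBMXL2 and the pseudogene HNRNPKP3, and those in sgNT alone were HNRNPAB, HNRNPU, RBM47, RBMS2, RBMX, SRSF4, SRSF5 and RBMS3-AS1. By position 10 of 12 sgSETD8 regions (83.3%, interval 51.6 to 97.9%, background 85.1%) and 12 of 14 sgNT regions (85.7%, interval 57.2 to 98.2%, background 79.1%) lacked a counterpart. The shared positions were an intron near RBM15-AS1 and an intergenic site upstream of RBMS1. RBM26 had an intronic region in each sparse table, 532 bp in sgSETD8 and 604 bp in sgNT, but they lay 7248 bp apart, both inside the wide dense region. Sparse regions were short, with a median of 302 bp in sgSETD8 and 520 bp in sgNT. In all, 4 of 12 sparse sgSETD8 regions (33.3%) and 13 of 14 sparse sgNT regions (92.9%) overlapped a region of the dense pair, and so did 29.3% of all sparse sgSETD8 and 79.0% of all sparse sgNT regions, so the contrast is one of the whole tables.

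The dense regions of these genes lay near starts more often than all dense regions did, and were long for their tables. Within 10 kb of the start were 30 of 68 regions in sgSETD8 (44.1%, interval 32.1 to 56.7%) and 24 of 47 in sgNT (51.1%, interval 36.1 to 65.9%), whereas over all dense regions the shares were 30.1% in sgSETD8 and 33.0% in sgNT. The authors' annotation put 41 sgSETD8 and 32 sgNT regions in introns, and 19 sgSETD8 and 10 sgNT regions between genes. Median width was 3862.5 bp in sgSETD8 and 5191 bp in sgNT, beside 1499 bp in sgSETD8 and 1515 bp in sgNT over all dense regions.

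Position over promoters was read from RefSeq windows of 300 bases, 250 before to 50 after each start on GRCh38.p14. Of 77 coding genes with these prefixes and a window, 16 had a window wholly inside a dense sgSETD8 region (20.8%, against 10.5% of 15812 coding genes) and 17 inside a dense sgNT region (22.1%, against 8.98%), whatever the region's name. Covered in both were 13, among them HNRNPA2B1, HNRNPD, HNRNPF, HNRNPK, HNRNPU, RBM12, RBM14, RBM15 and RBM26. In sgSETD8 alone they were HNRNPDL, HNRNPUL1 and SRSF11 (3 of 77 genes, background 3.76% of 15812 coding genes). In sgNT alone they were HNRNPA1L2, RBM28, SRSF3 and SRSF9 (4 of 77 genes, background 2.21%). No sparse region held such a window. Few regions of any gene lay wholly near a start, so a window outside every region is not shown to lack H3K27ac. Gene bodies were touched by a dense region in 46 of 85 genes in sgSETD8 (54.1%, against 35.9% of 19970 coding genes) and 42 of 85 in sgNT (49.4%, against 32.8%), with 7 in sgSETD8 alone (HNRNPDL, RBM4, RBM5, RBM7, RBM25, RBM34 and SRSF1, background 6.9%) and 3 in sgNT alone (HNRNPA1L2, RBMXL1 and SRSF9, background 3.84%).

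The promoter windows below differ in which group's dense regions held them, and were chosen after the coverage was seen. They are RefSeq sequences of GRCh38.p14, written 5′ to 3′ on the gene's strand. Capitals mark 4 motifs on either strand: the GC box GGGCGG bound by SP factors, the ETS letters CCGGAA, the RUNX letters TGTGGT and the CCAAT box bound by NF-Y. None of the 4 contains another, and a palindrome is counted on both strands. The first pair was held by dense sgSETD8 regions alone, at chr19:41264122-41264421 (plus strand, 1 of 3 HNRNPUL1 starts) and chr1:70221130-70221429 (plus strand, 1 of 2 SRSF11 starts).
HNRNPUL1: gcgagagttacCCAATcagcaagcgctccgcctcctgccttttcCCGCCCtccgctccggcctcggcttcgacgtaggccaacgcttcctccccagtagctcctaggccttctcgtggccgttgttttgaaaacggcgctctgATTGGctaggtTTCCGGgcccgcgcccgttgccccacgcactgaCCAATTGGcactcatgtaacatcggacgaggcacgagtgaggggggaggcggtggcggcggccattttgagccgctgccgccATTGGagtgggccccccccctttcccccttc
SRSF11: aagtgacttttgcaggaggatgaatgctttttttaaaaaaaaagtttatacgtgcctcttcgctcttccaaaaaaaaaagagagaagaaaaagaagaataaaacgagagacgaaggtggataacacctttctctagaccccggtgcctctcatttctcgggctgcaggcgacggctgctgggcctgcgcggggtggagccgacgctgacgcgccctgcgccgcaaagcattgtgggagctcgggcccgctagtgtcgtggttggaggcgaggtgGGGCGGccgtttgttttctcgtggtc
The next pair was held by dense sgNT regions alone, at chr7:128343859-128344158 (minus strand) and chr6:36594112-36594411 (plus strand).
RBM28: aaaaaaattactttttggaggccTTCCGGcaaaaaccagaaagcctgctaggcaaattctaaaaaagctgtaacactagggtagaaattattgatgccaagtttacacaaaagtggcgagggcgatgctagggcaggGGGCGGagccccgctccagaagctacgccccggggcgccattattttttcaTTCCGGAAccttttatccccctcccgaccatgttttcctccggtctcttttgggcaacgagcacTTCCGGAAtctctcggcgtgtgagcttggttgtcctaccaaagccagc
SRSF3: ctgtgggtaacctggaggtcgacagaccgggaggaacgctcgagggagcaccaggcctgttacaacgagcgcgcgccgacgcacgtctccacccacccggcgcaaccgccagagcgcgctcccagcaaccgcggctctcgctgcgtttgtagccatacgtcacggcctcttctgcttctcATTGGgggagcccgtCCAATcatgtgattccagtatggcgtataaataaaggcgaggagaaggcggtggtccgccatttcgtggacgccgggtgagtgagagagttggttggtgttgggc
The last pair was held in both groups, at chr1:244864494-244864793 (minus strand) and chr7:26200697-26200996 (minus strand).
HNRNPU: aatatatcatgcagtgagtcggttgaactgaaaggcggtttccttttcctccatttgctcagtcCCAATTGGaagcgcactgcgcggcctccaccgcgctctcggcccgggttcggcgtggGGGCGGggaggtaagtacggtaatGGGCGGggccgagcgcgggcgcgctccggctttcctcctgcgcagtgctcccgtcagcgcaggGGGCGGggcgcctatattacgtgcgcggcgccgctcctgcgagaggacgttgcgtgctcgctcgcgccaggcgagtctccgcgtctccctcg
HNRNPA2B1: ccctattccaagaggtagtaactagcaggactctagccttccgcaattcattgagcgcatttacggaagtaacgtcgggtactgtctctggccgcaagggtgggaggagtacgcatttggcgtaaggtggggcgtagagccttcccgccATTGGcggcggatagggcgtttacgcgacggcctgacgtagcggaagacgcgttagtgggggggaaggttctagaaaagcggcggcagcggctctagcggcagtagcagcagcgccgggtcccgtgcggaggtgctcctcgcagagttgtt

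The windows held different letters. HNRNPUL1 had 1 GC box, 1 ETS match and 5 CCAAT matches, and SRSF11 had 1 GC box. RBM28 had 1 GC box and 5 ETS matches, and SRSF3 had 2 CCAAT matches. HNRNPU had 3 GC boxes and 2 CCAAT matches, and HNRNPA2B1 had 1 CCAAT match. Over all 109 windows of genes with these prefixes, the GC box was present in 56.9%, the ETS letters in 24.8%, the RUNX letters in 6.42% and the CCAAT box in 49.5%. Over all 35116 RefSeq windows the shares were 45.0%, 17.2%, 13.1% and 34.6%. Of the 30 windows (23 genes) held by a dense region of either group, 0 had the RUNX letters, which 7 of the 109 had. The share over all RefSeq windows held by dense regions was not computed, so this count has no background. Median GC content was 65.7% in the 6 windows held in sgSETD8 alone, 61.8% in the 4 held in sgNT alone, 64.5% in the 20 held in both and 60.7% in the 79 held in neither. Its part in these shares was not tested.

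The other RNA-processing genes were read from lists in the same way, over genes with a dense region by name. The background was 20.5% in sgSETD8 alone and 11.4% in sgNT alone. Genes without a dense region in either group are outside those shares, so the list sizes are not their denominators. Such genes were 26 of 49 in the spliceosome core and 6 of 21 among kinases, phosphatases and importers. In the later lists they were 11 of 27 SR-related, 25 of 53 other splicing and 5 of 22 methylation and m6A genes. Of 49 spliceosome core genes, 18 had a dense region in sgSETD8 and 17 in sgNT, with 6 in sgSETD8 alone and 5 in sgNT alone. EFTUD2, SART1 and SF3B5 were in sgSETD8 alone and PRPF6, a tri-snRNP protein, in sgNT alone. Of 21 kinases, phosphatases and importers of SR proteins, 14 had a region in each group, and SRPK2, which phosphorylates SR domains in the cytoplasm, had 6 regions in sgSETD8 and 8 in sgNT. SR-related and exon junction proteins numbered 16 of 27 in sgSETD8 and 11 of 27 in sgNT. Of these, 5 were in sgSETD8 alone, among them ACIN1, the exon junction helicase EIF4A3, PNN and SRRM2, and 0 in sgNT alone. Other splicing regulators numbered 27 of 53 in sgSETD8 and 24 of 53 in sgNT, with EWSR1 and NONO among those in sgSETD8 alone and KHSRP in sgNT alone. Genes of arginine methylation and of the m6A machinery numbered 17 of 22 in sgSETD8 and 15 of 22 in sgNT. That machinery includes writers, erasers, readers and adaptors, and METTL14 and PRMT2 were in sgSETD8 alone. In the sparse pair EFTUD2 and PRMT2 had a region in sgNT alone and PNN in sgSETD8 alone. The other genes named here as in a single group had no sparse region. The median difference in region number per gene was 0 in each of these lists in the dense pair, as over all genes.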

How the data were processed

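H3K27ac CUT&Tag of Kasumi-1 cells was deposited for 4 samples, 2 per group, with 100000 cells per library per the labels. The series design text names H3K27me1, while titles and antibody labels name H3K27ac. The submitters' processing notes list cutadapt, Bowtie2 and the build hg38. Peak calling, stitching and annotation were not described there or elsewhere in the labels. The value column of all 4 deposited tables is the authors' signal, which factors into a density with 4 decimals and the region width. Its scale is not stated. Tables were put in groups by the guide named in their region identifiers. The sparse table read as sgNT names the cell line and no guide, and was read as sgNT for that reason. Which sample of a group a table holds was not resolved. Value columns without a group numbered 0.

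Regions on the 22 autosomes, X and Y were used. Overlap needed 1 bp, a matched region at least 90% mutual cover, and a density call 0.5 on the log2 scale. No count test was possible without counts, and depth is unknown. Signal was divided by width and used to rank regions within a table. The code for overlaps was tested on simulated intervals. Gene names are those of the tables. Named genes were members found in a single group or in 3 or 4 tables, the 10 best-ranked of each dense table, the 5 highest and 5 lowest by density, those with most regions, and up to 4 per other list, with KMT5A. Not all are described, and 1 that the rule takes is not reported here. RefSeq tables gave biotypes and promoter windows. The members and lists were chosen with earlier results of these data known. Alternatives were 50% overlap, a 1000 bp gap, merging within 12.5 kb, the best 5000 regions, a width of 500 bp, starts within 50 kb, no promoter regions, no RBMS genes and each pair left out. Scripts ran under Python 3.11.15 with scipy 1.17.1, pandas 2.3.3 and numpy 2.4.6, and figures were drawn with matplotlib 3.10.9.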

Additional observations from a re-analysis of the deposited data

How the results depend on the processing

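Of 92 alternatives over 17 results, 67 stayed within the counting interval of the reported value (counts within 1.5 times it, medians and means within 1 SD), 21 moved and 4 reversed. Among the best-ranked 5000 regions the dense log2 ratio of regions was -0.061 (23 regions in sgSETD8 and 24 in sgNT), with 6 genes in sgSETD8 alone and 6 in sgNT alone, 21.7% of sgSETD8 regions without a counterpart and 60.9% of sgSETD8 regions within 10 kb of a start, and the dense log2 ratio of genes was 0 (22 in each group). Equal table sizes remove any difference in region number over the whole tables there, and over all genes that ratio was 0.00037. In the sparse pair the best 5000 gave log2 ratios of -0.78 for genes and -0.89 for regions, and starts within 50 kb gave 0 for both (10 in each group). Without the RBMS genes the sparse log2 ratios of genes and regions were 0.14, and 1 gene was in dense sgNT alone, as it was with starts within 50 kb. With regions of at least 500 bp both sparse ratios were -3 (1 region in sgSETD8 and 8 in sgNT), 0 genes were in sparse sgSETD8 alone, and 100% of the sparse regions of both groups lacked a counterpart, as did 100% among the best 5000. Sparse regions that overlap the dense pair gave a log2 ratio of -1.70. Leaving out each pair gave a mean log2 ratio of genes between -0.12 and 0.38. At 50% overlap, 60.3% of dense sgSETD8 and 34.04% of dense sgNT regions lacked a counterpart. With regions of at least 1000 bp, added after seeing the data, 26.8% of the dense sgSETD8 regions did. Counted by position under any gene name, also added then, 0 genes were in dense sgNT alone. The median log2 density without centring was -0.30. A threshold of 0.25 gave 2 of the 9 regions matched at 90% cover. For the shares without a counterpart, the share near a start and this threshold, the alternatives were not run over all regions. These values therefore have no background at the same setting, and the backgrounds given above do not apply to them. At 50% mutual cover 5 of 21 passed 0.5, 14.3% upward and 9.52% downward, against 4.54% and 5.19% of all 6011, the highest at HNRNPC (0.60) and HNRNPA1P10 (0.56) and the lowest at RBM12 (-0.98) and HNRNPLL (-0.74). No paired test was run, and the sample labels give no replicate numbers. The pairs of tables, taken from their deposited format and the form of their identifiers, were set side by side, with a mean log2 ratio over them. Depth, peak caller and density scaling are unknown, and the tables of a group differ more from each other than the groups do.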

Other observations

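HNRNPA1P10, a pseudogene of HNRNPA1, was 1 of the 3 genes named in all 4 tables, with RBM26 and RBMS1. Its sparse region was 668 bp at density 2.69 in sgNT, inside which lay the dense regions of 397 bp in sgSETD8 and 551 bp in sgNT, whereas the sparse sgSETD8 region of that name lay elsewhere, 17033 bp from any sparse sgNT region. The antisense transcript RBM15-AS1 was named in both sparse tables, at 320 bp in sgSETD8 and 293 bp in sgNT that overlap, and in no dense table. RBMS3-AS1 had a broad intergenic region of low density in both dense tables, 15.3 kb at 0.172 in sgSETD8 and 18.1 kb at 0.224 in sgNT.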
